A study of Homo sapiens with 70 samples.

Results

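The BCL2 family decides whether the outer mitochondrial membrane holds or is opened, and 10 of its genes were followed here through treatment of 2 human liver cancer lines. The genes were BCL2, BCL2L1, MCL1, BAX, BAK1, BBC3, PMAIP1, BCL2L11, BID and BIK. They were taken by gene symbol from the authors' 6 tables of drug against vehicle, which hold 20090 genes, and all 10 were found in each table. Hep3B and Huh7, both established hepatocellular carcinoma lines, had been given 5 µM GW3965, 2 µM sorafenib, both drugs at these doses or DMSO for 24 h. GW3965 activates the liver X receptors (LXR), and sorafenib is a kinase inhibitor that acts on RAF and on several receptor tyrosine kinases. The 70 poly-A RNA-seq libraries comprised 9 Hep3B libraries each of GW3965, sorafenib, both drugs and DMSO. Huh7 was represented by 8 libraries labelled GW3965, 9 labelled sorafenib, 9 labelled with both drugs and 8 labelled DMSO. The labels do not say whether replicate libraries were prepared from separate cultures, so the authors' p-values may rest on technical spread alone.

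Proteins of this family fall into 3 classes. The guardians BCL2, BCL-XL (the product of BCL2L1) and MCL1 hold the pore formers in check. The effectors BAX and BAK (the product of BAK1) form the pore that lets cytochrome c out of the mitochondrion, after which caspases are activated. The BH3-only proteins PUMA (BBC3), NOXA (PMAIP1), BIM (BCL2L11), BID and BIK are the stress sensors, which bind the guardians and in part activate the effectors directly. Hepatocytes rely on BCL-XL and MCL1, and BID links death receptors to mitochondria in these cells. BBC3 and PMAIP1 are controlled mainly by transcription in response to cell stress, BCL2L11 is a target of FOXO factors, and the BIM protein is marked for degradation by ERK.

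Each of the authors' tables gives, for every transcript, a mean log2 CPM over the groups compared, a log2 fold change of drug over DMSO, an edgeR p-value and an FDR, the p-value adjusted by the Benjamini-Hochberg method over all listed transcripts. CPM is the count of a transcript scaled to the size of its library. A gene was called where the deposited FDR was under 0.05 on the transcript that the authors marked as representative, and "rose" and "fell" are used of called genes. Values of single libraries were not used here, so no replicate spread or depth can be given, and the error printed beside a log2 fold change is an approximate standard error worked back from its p-value. The group level of a gene was worked back from its mean and its fold change and is called its implied level.

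Marker genes of the 2 drugs were read first. In Hep3B, the authors' deposited tables list ABCG1, a liver X receptor target, at a log2 fold change of 5.99 with GW3965, 0.59 with sorafenib and 6.46 with both drugs. The same Hep3B columns of the authors' deposited tables hold DUSP6, an ERK target, at 0.33, -2.40 and -2.55. In Huh7 the single-drug tables ran against their labels. ABCG1 stood at 0.75 in the authors' deposited table labelled GW3965 and 3.82 in the one labelled sorafenib, whereas DUSP6 stood at -1.70 and -0.02 there. With both drugs, Huh7 had 4.37 for ABCG1 and -1.68 for DUSP6 in the authors' deposited table. The Huh7 single-drug groups are therefore named by their labels throughout, and no direction is drawn from them for a particular drug. All 12 hepatocyte and hepatoma markers examined had a mean of at least 2 CPM in all 6 tables, whereas none of the 3 endothelial markers did. In leukocyte markers, CD68 and LYZ passed 2 CPM and PTPRC and CD3E did not, while COL1A2 and PDGFRB, which also mark stellate cells, passed it in both lines and COL1A1 in Huh7 alone. Because these were bulk libraries, fewer cells carrying a transcript and less of it per cell cannot be told apart.

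In cells given DMSO the guardians BCL2L1 and MCL1 and the effector BAX made up most of the family's RNA. Per kilobase of transcript, the implied Hep3B level in DMSO was 68.8 CPM per kb for BCL2L1, 54.5 for MCL1 and 54.4 for BAX. BID followed at 11.8 CPM per kb, ahead of BAK1 at 6.98, BBC3 at 5.95 and BCL2L11 at 5.56. In Huh7 the same 3 genes led, with 85.9 CPM per kb for BCL2L1, 48.4 for BAX and 43.3 for MCL1 in DMSO. BID was at 13.3 CPM per kb in Huh7, BAK1 at 6.44, BCL2L11 at 5.70 and BBC3 at 2.69. Lowest in both lines were BIK, at 1.04 CPM per kb in Hep3B and 0.491 in Huh7, PMAIP1, at 0.147 and 0.131, and BCL2 itself, at 0.0506 and 0.0332. PMAIP1 and BCL2 lay near the floor of the data. In the Huh7 comparison labelled GW3965 their mean log2 CPM was -1.93 and -2.12, and the lowest of any transcript was -2.45. The order of PMAIP1 and BCL2 is therefore not resolved, and the BCL2 value also reflects division by a length of 7461 nt. For 7 of the 10 genes the mean was at least 2 CPM in each table. The exceptions were BCL2, PMAIP1 and BIK. The DMSO level of a line was implied by 3 tables, and the highest of the 3 was at most 1.07 times the lowest for the 7 genes at or above 2 CPM. MCL1 and BAX in Hep3B lay closer to each other than that, so their order is not resolved. Levels per kilobase also rest on the length of the representative transcript. In the Hep3B GW3965 comparison MCL1 had a mean of 222 CPM on that transcript, of 3932 nt, and 210 CPM on one of 1110 nt. BAX had 41.3 CPM on its representative transcript of 793 nt and 35.9 CPM on one of 1358 nt. The order among BCL2L1, MCL1 and BAX therefore depends on the transcript taken.

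**Figure D1:**
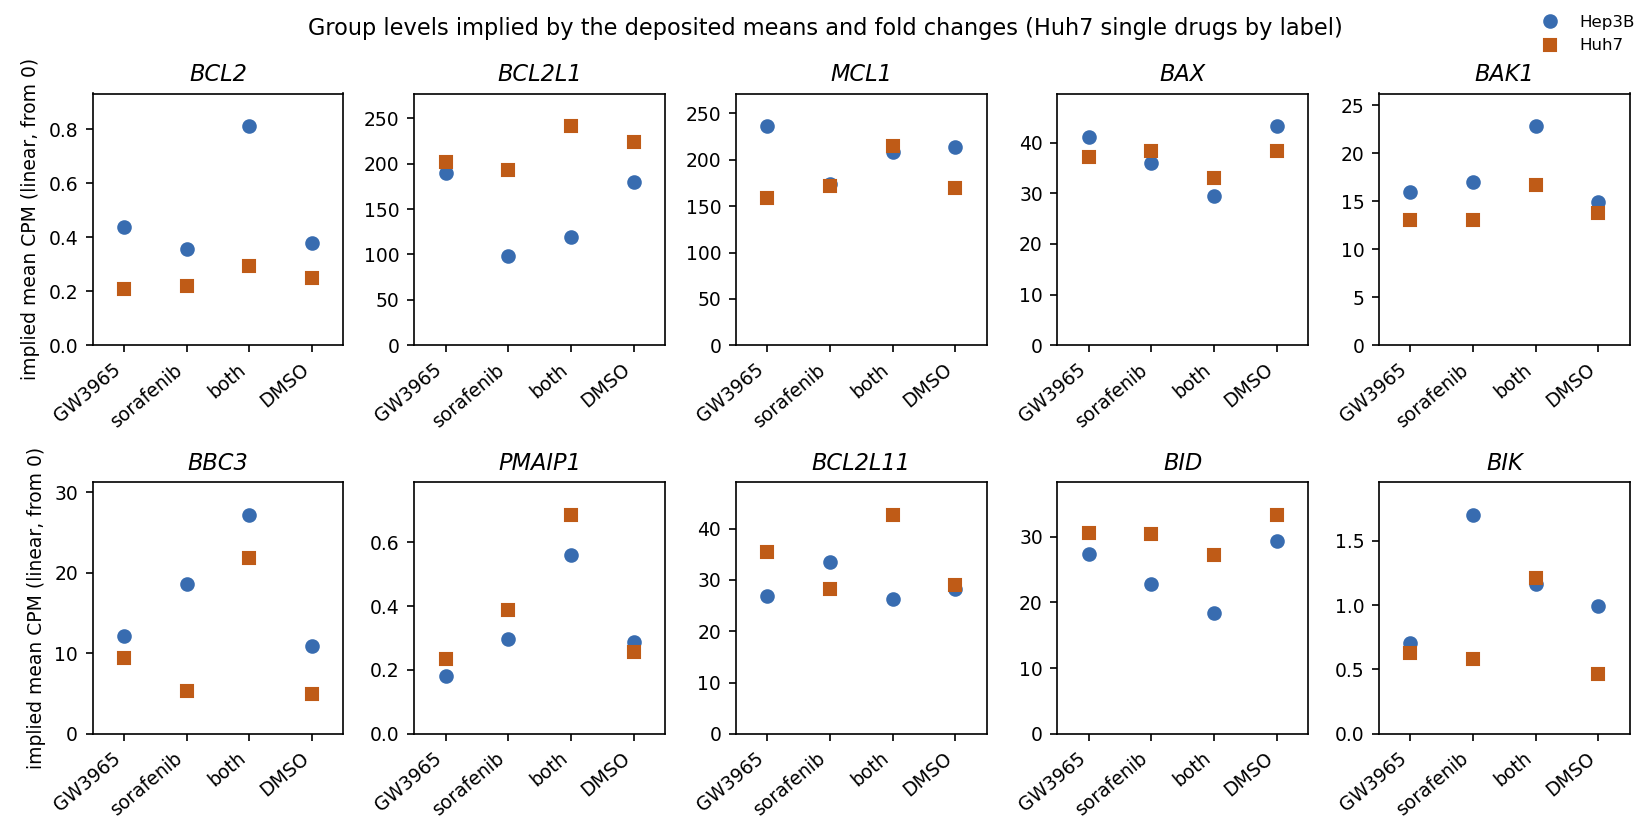
Implied mean level of each BCL2 family gene in CPM (vertical axis, linear, from 0, scaled per gene) in the GW3965, sorafenib, both-drug and DMSO groups of Hep3B (circles) and Huh7 (squares, single drugs by label). No error bars are drawn because values of single libraries were not used. BBC3 was highest with both drugs in both lines, at 27.2 CPM in Hep3B and 21.9 CPM in Huh7, and BCL2L1 in Hep3B was lowest with sorafenib, at 98.7 CPM.

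The promoters shown are of the 4 genes that were called in the same direction with both drugs in both lines, BBC3, PMAIP1, BAK1 and BID. Of all genes, 15.2% were called higher and 11.5% lower in both lines. Sequences are from RefSeq, build GRCh38.p14, and run 5′ to 3′ from 250 bases before to 50 bases after the annotated start. The table of promoters had entries for 8 of the 10 genes, and MCL1 and BIK were not among them. BBC3 is at chr19:47232618-47232917 and BAK1 at chr6:33580227-33580526, both on the minus strand, PMAIP1 at chr18:59899746-59900045 on the plus strand, and the first of 5 listed BID promoters at chr22:17774420-17774719 on the minus strand. Capitals mark matches, on either strand, to the E-box CACGTG or the GC box GGGCGG, the motifs found among the 5 searched.
BBC3: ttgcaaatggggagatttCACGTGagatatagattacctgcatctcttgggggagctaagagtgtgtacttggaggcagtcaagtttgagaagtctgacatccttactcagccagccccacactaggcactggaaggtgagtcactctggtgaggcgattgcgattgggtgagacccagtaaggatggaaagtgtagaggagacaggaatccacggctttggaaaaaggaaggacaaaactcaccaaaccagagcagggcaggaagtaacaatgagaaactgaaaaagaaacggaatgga
PMAIP1: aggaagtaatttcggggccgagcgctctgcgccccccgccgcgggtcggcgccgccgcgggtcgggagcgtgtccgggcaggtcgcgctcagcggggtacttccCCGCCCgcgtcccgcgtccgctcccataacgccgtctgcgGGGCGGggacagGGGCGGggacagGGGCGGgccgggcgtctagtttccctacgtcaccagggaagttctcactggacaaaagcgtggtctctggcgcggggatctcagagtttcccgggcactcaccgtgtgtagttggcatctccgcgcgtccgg
BAK1: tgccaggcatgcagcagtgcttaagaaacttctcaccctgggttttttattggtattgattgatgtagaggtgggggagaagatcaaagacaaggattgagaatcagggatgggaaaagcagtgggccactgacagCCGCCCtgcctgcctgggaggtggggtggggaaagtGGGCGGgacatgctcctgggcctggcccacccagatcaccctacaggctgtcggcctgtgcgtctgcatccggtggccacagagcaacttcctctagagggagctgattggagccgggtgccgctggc
BID: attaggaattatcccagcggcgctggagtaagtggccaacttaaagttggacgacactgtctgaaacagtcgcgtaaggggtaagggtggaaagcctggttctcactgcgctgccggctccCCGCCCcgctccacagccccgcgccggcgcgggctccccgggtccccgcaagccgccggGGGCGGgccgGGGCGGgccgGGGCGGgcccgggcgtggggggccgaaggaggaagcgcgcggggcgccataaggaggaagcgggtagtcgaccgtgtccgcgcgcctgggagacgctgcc
The BBC3 window held a single E-box, whose first base is at -232 from the start, and PMAIP1 held 4 GC boxes between -146 and -82. BAK1 had 2 GC boxes, at -114 and -78, and the first BID promoter had 4, between -129 and -50. Of the BID promoters not shown, numbers 2 and 5 as listed each held an E-box, and number 3 held none of the motifs. Of the 35116 promoters of 300 bases in the table, 7.26% held the E-box and 45.0% the GC box. The other motifs searched were the C/EBP-ATF response element TGATGNAAN, in 3.61% of all promoters, the cAMP response element TGACGTCA, in 1.85%, and the FOXO motif GTAAACA, in 3.42%. Each motif was searched on its own, so that matches to different motifs could overlap. The first 2 of these had no match in the promoters of the family. The FOXO motif had a match in BCL2L11 alone, at -223. BAX carried 4 E-boxes, between -138 and -14.

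With both drugs in Hep3B, 7 of the 10 genes were called, 4 higher and 3 lower. The authors' deposited table called 49.6% of all genes, and it called 26.0% of all genes higher with both drugs and 23.6% lower. Among genes with a mean of at least 2 CPM 72.1% were called, against 5 of the 7 family genes at that level, so the family's share of calls was close to that of other expressed genes. BBC3, PMAIP1, BCL2 and BAK1 rose, and BCL2L1, BAX and BID fell. With both drugs in Huh7, 7 of 10 were again called, 6 higher and 1 lower. There the authors' deposited table called 41.6% of all genes, 24.3% higher and 17.3% lower, and 61.7% of those with at least 2 CPM, against 5 of 7 family genes. BBC3, PMAIP1, BIK, BCL2L11, MCL1 and BAK1 rose in Huh7 and BID fell. In the Huh7 both-drug table the log2 fold changes of all genes had a median of 0.16, and 0.07 for those with at least 2 CPM. With 0.07 subtracted, the 7 called Huh7 genes passed by a normal test on the approximate standard errors, from -0.33 for BID to 2.13 for BBC3.

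Fewer of the genes were called with single drugs. With GW3965 in Hep3B, MCL1 was called, higher, and 5 of the 10 had an unadjusted edgeR p under 0.05 (also BCL2L1, BBC3, BAK1 and BIK), where the authors' deposited table called 6.79% of all genes (4.51% higher, 2.28% lower) and 11.2% of those with at least 2 CPM. Sorafenib in Hep3B changed 6 of the 10, with BBC3 and BIK higher and BCL2L1, MCL1, BAX and BID lower, while 34.7% of all genes in the authors' deposited table were called, 17.3% higher and 17.4% lower, and 51.5% of those with at least 2 CPM. In the Huh7 table labelled GW3965, BBC3 and BCL2L11 rose and no family gene fell, beside 20.4% of all genes called (9.13% higher, 11.3% lower) and 31.4% of those with at least 2 CPM in the authors' deposited table. In the one labelled sorafenib 0 of 10 were called by edgeR and 0 had an unadjusted p under 0.05, the smallest being 0.0761 for BID. Only 2.05% of all genes were called in that one of the authors' deposited tables, 1.25% higher and 0.796% lower, and 3.32% of those with at least 2 CPM. The 3 comparisons of a line share its DMSO libraries.

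**Figure D2:**
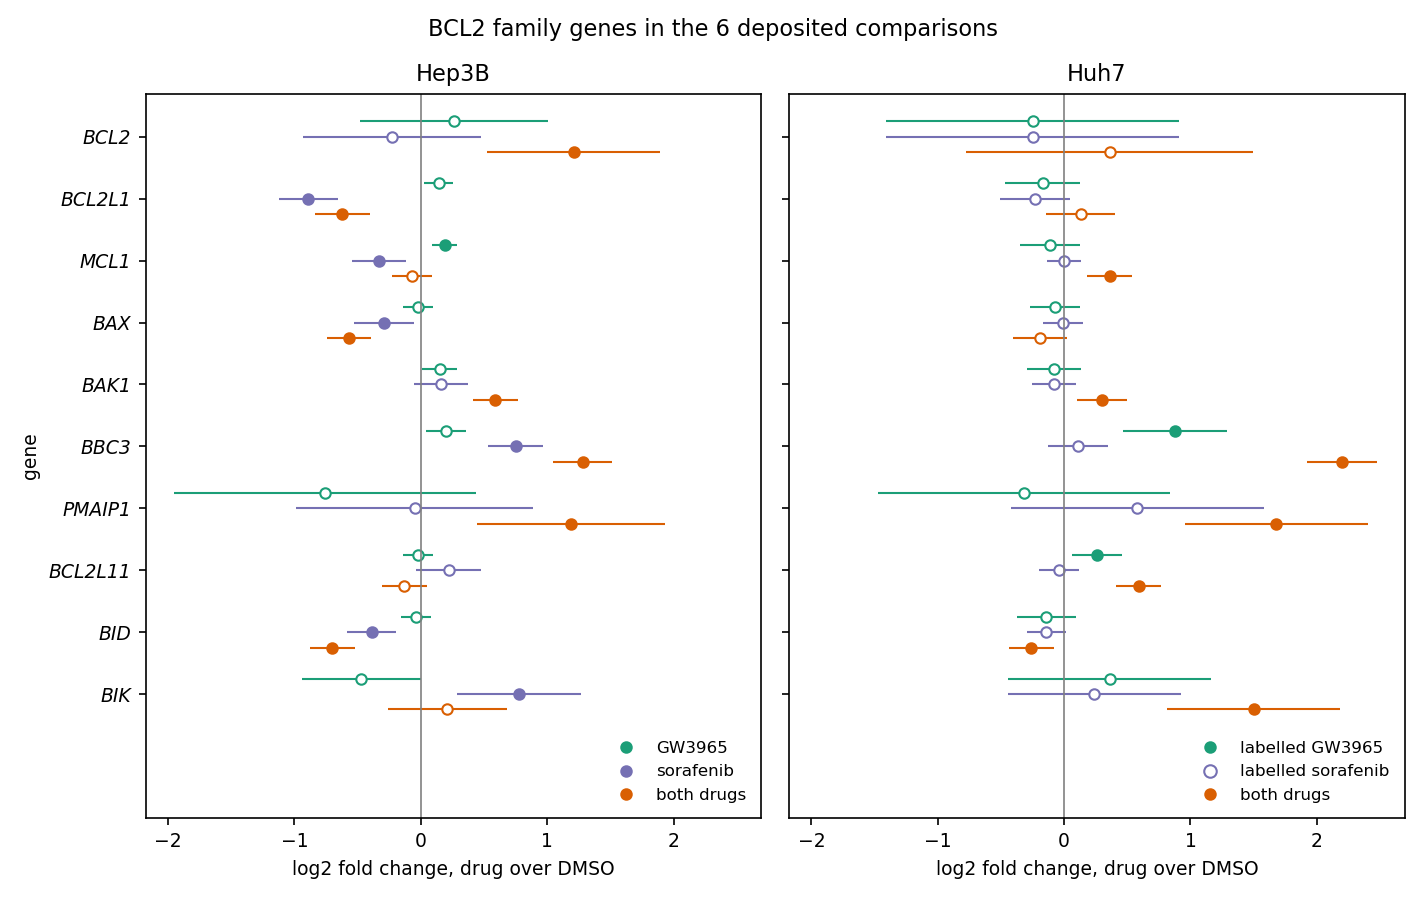
Log2 fold change of drug over DMSO (horizontal axis) for the 10 BCL2 family genes in Hep3B (left) and Huh7 (right, single drugs by label), from the authors' deposited tables. Bars are approximate 95% intervals worked back from the deposited p-values, and filled points passed the deposited FDR of 0.05. BBC3 with both drugs lies furthest right in each panel among genes with at least 2 CPM, at 1.28 in Hep3B and 2.20 in Huh7, and BCL2L1 lies left of 0 with sorafenib (-0.89) and with both drugs (-0.62) in Hep3B.

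Among the guardians, BCL2L1 fell in Hep3B with sorafenib and with both drugs. This gene encodes BCL-XL, which keeps BAX and BAK inactive. Its implied Hep3B level was 190 CPM with GW3965, 98.7 CPM with sorafenib, 119 CPM with both drugs and 180 CPM with DMSO, so both groups given sorafenib were lower than the other groups. In the authors' deposited tables the log2 fold change was -0.89 ± 0.12 with sorafenib (approximate SE, edgeR FDR 2.38e-13) and -0.62 ± 0.11 with both drugs (FDR 1.61e-08), and 0.14 ± 0.06 with GW3965 (FDR 0.148). In Huh7 the implied level was 202 CPM in the group labelled GW3965, 193 CPM in the one labelled sorafenib, 241 CPM with both drugs and 224 CPM with DMSO. None of these Huh7 log2 fold changes of BCL2L1 passed the edgeR FDR in the authors' deposited tables, at -0.17, -0.23 and 0.13 with FDRs of 0.529, 0.655 and 0.539. Its other listed transcript gave -0.62 and 0.13 with both drugs in Hep3B and Huh7 in the authors' deposited tables.

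MCL1, a short-lived guardian that binds BIM and NOXA tightly, lay nearer to its DMSO level than BCL2L1 in the Hep3B groups given sorafenib. The implied Hep3B level of MCL1 was 236 CPM with GW3965, 174 CPM with sorafenib, 208 CPM with both drugs and 214 CPM with DMSO. It rose with GW3965 (0.19 ± 0.05, edgeR FDR 0.00974) and fell with sorafenib (-0.33 ± 0.11, FDR 0.00365), and was at -0.07 ± 0.08 with both drugs (FDR 0.443) in the authors' deposited tables. In Huh7, MCL1 stood at 159 CPM in the group labelled GW3965, 172 CPM in the one labelled sorafenib, 215 CPM with both drugs and 170 CPM with DMSO. The both-drug group was the high one, at 0.36 ± 0.09 on the log2 scale (edgeR FDR 1.23e-04), and the single-drug values of -0.11 and 0.00 did not pass in the authors' deposited tables. BCL2, the founding guardian, had low RNA levels in these lines, with means of 0.230 to 0.579 CPM and a nonzero count in 47 of the 70 libraries. It rose with both drugs in Hep3B, by 1.21 ± 0.35 on the log2 scale (edgeR FDR 1.01e-04), to an implied 0.810 CPM against 0.378 CPM with DMSO in the authors' deposited table. The other BCL2 transcript gave 0.44 there (FDR 0.446), so the rise was not seen on every listed transcript of the authors' deposited table. In Huh7 the log2 fold change of BCL2 with both drugs was 0.36 ± 0.58 (edgeR FDR 0.830) in the authors' deposited table.

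The effectors moved in opposite directions in Hep3B. BAX, a cytosolic pore former that moves to mitochondria when activated, had an implied 41.0 CPM with GW3965, 36.0 CPM with sorafenib, 29.5 CPM with both drugs and 43.2 CPM with DMSO. BAX fell with both drugs (-0.57 ± 0.09, edgeR FDR 2.17e-09) and with sorafenib (-0.29 ± 0.12, FDR 0.0365) in the authors' deposited tables, the second of which did not pass once the median of expressed genes was subtracted (-0.26). BAK1 encodes BAK, which sits in the outer membrane already. The implied BAK1 level in Hep3B was 16.0 CPM with GW3965, 17.0 CPM with sorafenib, 22.8 CPM with both drugs and 14.9 CPM with DMSO. BAK1 rose with both drugs, by 0.59 ± 0.09 on the log2 scale (edgeR FDR 2.28e-12), while the single-drug values of 0.15 and 0.16 did not pass (FDR 0.0966 and 0.203) in the authors' deposited tables. The both-drug group of Hep3B thus had the highest BAK1 and the lowest BAX level of the 4 groups.

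In Huh7 the both-drug fold changes of the effectors were nearer to 0. BAX stood at an implied 37.1 CPM in the group labelled GW3965, 38.4 CPM in the one labelled sorafenib, 33.1 CPM with both drugs and 38.4 CPM with DMSO. Its both-drug log2 fold change was -0.19 ± 0.11 (edgeR FDR 0.163) in the authors' deposited table, and -0.25, past the threshold, once the median of expressed genes was subtracted. BAK1 had an implied 13.1 CPM in each single-drug group, 16.7 CPM with both drugs and 13.8 CPM with DMSO. It rose with both drugs in Huh7 as well, by 0.30 ± 0.10 on the log2 scale (edgeR FDR 8.88e-04), and the values of -0.08 in both single-drug comparisons did not pass in the authors' deposited tables. The 5 listed BAX transcripts gave values between -0.58 and -0.53 with both drugs in Hep3B and between -0.20 and -0.14 in Huh7 in the authors' deposited tables. The transcript of BAX that the authors marked as representative is a noncoding RefSeq entry, and how reads shared by transcripts of a gene were counted is not stated in the labels or headers.

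BBC3 had the largest called change of the 10 genes in both lines with both drugs, although in Hep3B BCL2 (1.21 ± 0.35) and PMAIP1 (1.19 ± 0.38) lay within their errors of it in the authors' deposited table. It encodes PUMA, a BH3-only protein that binds every guardian. Its implied Hep3B level was 12.2 CPM with GW3965, 18.6 CPM with sorafenib, 27.2 CPM with both drugs and 10.9 CPM with DMSO. In the authors' deposited tables BBC3 rose 2.44-fold with both drugs (log2 1.28 ± 0.12, edgeR FDR 9.08e-26) and 1.68-fold with sorafenib (0.75 ± 0.11, FDR 3.64e-12), while GW3965 gave 0.20 ± 0.08 (FDR 0.0849). Huh7 had less BBC3 with DMSO, and the implied level was 9.36 CPM in the group labelled GW3965, 5.37 CPM in the one labelled sorafenib, 21.9 CPM with both drugs and 4.94 CPM with DMSO. There BBC3 rose 4.59-fold with both drugs (log2 2.20 ± 0.14, edgeR FDR 6.74e-53) and 1.84-fold in the group labelled GW3965 (0.88 ± 0.21, FDR 5.28e-04), and was at 0.11 ± 0.12 in the group labelled sorafenib (FDR 0.980) in the authors' deposited tables. Both-drug groups were thus the highest in each line, and the gap between the lines was narrower with both drugs than with DMSO. All 4 listed BBC3 transcripts rose with both drugs, by 1.26 to 1.28 in Hep3B and 2.12 to 2.20 in Huh7 (log2, the authors' deposited tables).

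PMAIP1 encodes NOXA, which binds MCL1 above all and speeds its degradation. Its RNA was near the lower limit of these tables, with means of 0.246 to 0.464 CPM and a nonzero count in 48 of the 70 libraries. The implied Hep3B level was 0.182 CPM with GW3965, 0.296 CPM with sorafenib, 0.560 CPM with both drugs and 0.287 CPM with DMSO. In Huh7 it was 0.233 CPM in the group labelled GW3965, 0.389 CPM in the one labelled sorafenib, 0.686 CPM with both drugs and 0.255 CPM with DMSO. The both-drug groups were again the highest. PMAIP1 rose with both drugs by 1.19 ± 0.38 (log2) in Hep3B (edgeR FDR 0.00407) and by 1.68 ± 0.37 in Huh7 (FDR 2.56e-05) in the authors' deposited tables. Its 4 single-drug log2 fold changes, from -0.76 to 0.58, did not pass in the authors' deposited tables (edgeR FDR 0.673 or above), and their standard errors of 0.48 to 0.61 would not resolve changes of that size.

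BCL2L11, which encodes the activator BIM, rose in Huh7 and not in Hep3B. In Huh7 the implied level was 35.4 CPM in the group labelled GW3965, 28.3 CPM in the one labelled sorafenib, 42.7 CPM with both drugs and 29.0 CPM with DMSO. It rose with both drugs (0.59 ± 0.09, edgeR FDR 1.15e-10) and in the group labelled GW3965 (0.26 ± 0.10, FDR 0.0157) in the authors' deposited tables. In Hep3B it was at 26.8 CPM with GW3965, 33.6 CPM with sorafenib, 26.3 CPM with both drugs and 28.3 CPM with DMSO, and the log2 fold changes of -0.02, 0.22 and -0.13 did not pass (edgeR FDR 1.00, 0.166 and 0.275) in the authors' deposited tables. A listed transcript of 720 nt gave 0.28 (FDR 0.0889) for both drugs in Huh7 beside 0.59 and 0.60 for the others in the authors' deposited table, though at a mean of 4.48 CPM. A difference between these transcripts was not tested.

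BID was the BH3-only gene that fell in both lines. Its product is cut by caspase-8 and carries death receptor signals to mitochondria. The implied Hep3B level was 27.4 CPM with GW3965, 22.8 CPM with sorafenib, 18.3 CPM with both drugs and 29.3 CPM with DMSO. It fell with both drugs (-0.70 ± 0.09, edgeR FDR 6.10e-23) and with sorafenib (-0.39 ± 0.10, FDR 1.49e-04) in the authors' deposited tables, with GW3965 at -0.04. In Huh7 BID stood at 30.6 CPM in the group labelled GW3965, 30.4 CPM in the one labelled sorafenib, 27.2 CPM with both drugs and 33.3 CPM with DMSO. The fall with both drugs there was -0.26 ± 0.09 (edgeR FDR 0.00322) in the authors' deposited table, and both single-drug values of -0.14 did not pass.

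BIK, a BH3-only protein of the endoplasmic reticulum, was called with sorafenib in Hep3B and with both drugs in Huh7. In Hep3B its implied level was 0.706 CPM with GW3965, 1.70 CPM with sorafenib, 1.16 CPM with both drugs and 0.992 CPM with DMSO. BIK rose with sorafenib (0.78 ± 0.25, edgeR FDR 0.00134), and was at 0.21 ± 0.24 with both drugs (FDR 0.510) in the authors' deposited tables. In Huh7 it stood at 0.627 CPM in the group labelled GW3965, 0.579 CPM in the one labelled sorafenib, 1.21 CPM with both drugs and 0.468 CPM with DMSO. It rose there with both drugs (1.50 ± 0.35, edgeR FDR 8.13e-05) in the authors' deposited table. When all representative transcripts were tested, the both-drug change of BIK was lower in Hep3B than in Huh7 by the approximate test described next (-1.29 ± 0.43, adjusted p = 0.0122). Across the both-drug comparisons, 3 family genes were higher in both lines (BBC3, PMAIP1 and BAK1) and 1 was lower in both (BID), and 0 were called in opposite directions. Among all genes these outcomes took 15.2%, 11.5% and 3.40%. BCL2, BAX and BCL2L1 were called in Hep3B alone and MCL1, BCL2L11 and BIK in Huh7 alone, as were 19.5% and 11.5% of all genes. BAX passed in both lines once the median of expressed genes was subtracted and a normal test on the approximate standard errors was used.

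Differences between these fold changes were tested for the 7 genes with at least 2 CPM by an approximate normal test, with Benjamini-Hochberg adjustment over all genes at that level. Both drugs exceeded sorafenib alone in Hep3B for BBC3, by 0.54 ± 0.16 on the log2 scale (adjusted p = 0.00576, 95% interval 0.22 to 0.86) and for BAK1, by 0.42 ± 0.14 (adjusted p = 0.0150, interval 0.14 to 0.71). No other family gene passed, beside 16.6% of all genes called higher and 14.5% lower in this contrast. BCL2L1 lay at 0.27 (interval -0.03 to 0.58) and MCL1 at 0.26 (0.00 to 0.52). With the median difference of 0.04 subtracted, BCL2L11 (-0.39) and BID (-0.35) passed as well, so the split became 2 higher and 2 lower. The fold changes set against each other share their DMSO libraries. DMSO cancels in the difference between both drugs and 1 drug, yet this test counts its error in both fold changes. Its standard errors for such differences are therefore too large. With the DMSO error left out, which assumes equally variable groups, all 7 passed by the same normal test (adjusted p of 0.0297 or below). BBC3, BAK1, MCL1 and BCL2L1 were higher and BCL2L11, BID and BAX lower. Against GW3965 alone in Hep3B, both drugs gave higher BBC3 (1.08) and BAK1 (0.43) and lower BCL2L1 (-0.76), BID (-0.66), BAX (-0.55) and MCL1 (-0.26), where 30.7% of all genes were called higher and 33.2% lower.

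In Huh7, both drugs exceeded the group labelled sorafenib in BBC3 (2.09 ± 0.18, adjusted p = 6.39e-28), BCL2L11 (0.63 ± 0.12), BAK1 (0.39 ± 0.14) and MCL1 (0.35 ± 0.11), and 29.1% of all genes were called higher and 18.0% lower. Against the group labelled GW3965 the same 4 genes were higher, BBC3 by 1.32 ± 0.26 (adjusted p = 6.23e-06), MCL1 by 0.47 ± 0.15, BAK1 by 0.39 ± 0.15 and BCL2L11 by 0.33 ± 0.13, with 20.4% of all genes higher and 9.61% lower. With the median difference of 0.09 subtracted in the first contrast, BAK1 was at 0.30 and no longer passed (adjusted p = 0.0579). The median difference of all genes in the second contrast was 0.11. Relative to it only BBC3 passed, at 1.20 (adjusted p = 4.61e-05), and MCL1 was at 0.36 (adjusted p = 0.0574). No family gene was called lower in either Huh7 contrast. For BAX the intervals ran from -0.44 to 0.08 and from -0.40 to 0.16, and for BID from -0.36 to 0.11 and from -0.42 to 0.17.

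Whether both drugs gave more than the sum of the single-drug log2 fold changes was asked next. The sum does not depend on which Huh7 single-drug table holds which drug. In Hep3B 0 of the 7 genes passed, and 0 had an unadjusted p under 0.05 by this approximate test, the smallest being 0.0521 for BCL2L11, beside 10.8% of all genes called higher and 11.4% lower. With the shared DMSO error counted once, 5 of the 7 had an unadjusted p under 0.05 (BBC3, BAX, BCL2L11, BID and BAK1), and BCL2L11 passed, at -0.32 (adjusted p = 0.0494). BBC3 lay 0.33 above the sum (interval -0.02 to 0.68, adjusted p = 0.173), and BAK1 0.27 above it (-0.05 to 0.59). In Huh7 BBC3 exceeded the sum by 1.21 ± 0.28 (interval 0.66 to 1.76, adjusted p = 4.57e-04), BAK1 by 0.47 ± 0.18 (adjusted p = 0.0384) and MCL1 by 0.47 ± 0.17 (adjusted p = 0.0281). With the shared DMSO error counted once, BCL2L1 (0.53, adjusted p = 0.0292) and BCL2L11 (0.37, adjusted p = 0.0127) passed as well. Of all genes 15.3% were called higher and 5.90% lower there, and the median departure was 0.14. Relative to that median BBC3 alone passed, at 1.07 (adjusted p = 0.00248), with BAK1 and MCL1 both at 0.33.

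The lines differed with both drugs in 6 of the 7 genes, each with a lower log2 fold change in Hep3B than in Huh7, while 17.7% of all genes were called higher and 26.3% lower. BBC3 differed by -0.91 ± 0.18 (adjusted p = 6.48e-06), BCL2L1 by -0.75 ± 0.17 (9.90e-05) and BCL2L11 by -0.72 ± 0.13 (2.27e-07). Smaller differences were found for BID (-0.44 ± 0.13), MCL1 (-0.43 ± 0.12) and BAX (-0.39 ± 0.14). BAK1 was the exception, at 0.28 ± 0.14 (interval 0.02 to 0.55, adjusted p = 0.0792), and with the median difference of -0.05 subtracted it passed at 0.33 (adjusted p = 0.0337). BCL2, PMAIP1 and BIK, below 2 CPM, were tested where all representative transcripts entered. There both drugs exceeded sorafenib in Hep3B for BCL2 (1.44 ± 0.50, adjusted p = 0.0275). PMAIP1 exceeded its GW3965 change in Hep3B (1.95 ± 0.72, adjusted p = 0.0194) and the one labelled GW3965 in Huh7 (2.01 ± 0.70, adjusted p = 0.0281). BIK exceeded the one labelled sorafenib in Huh7 (1.26 ± 0.49, adjusted p = 0.0409). None of the 3 passed in the departure from the sum in either line (adjusted p of 0.128 or above). In the same setting BCL2L11 and BAK1 no longer passed against the group labelled GW3965 in Huh7. BAK1 also no longer passed in the departure from the sum in Huh7.

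**Figure D3:**
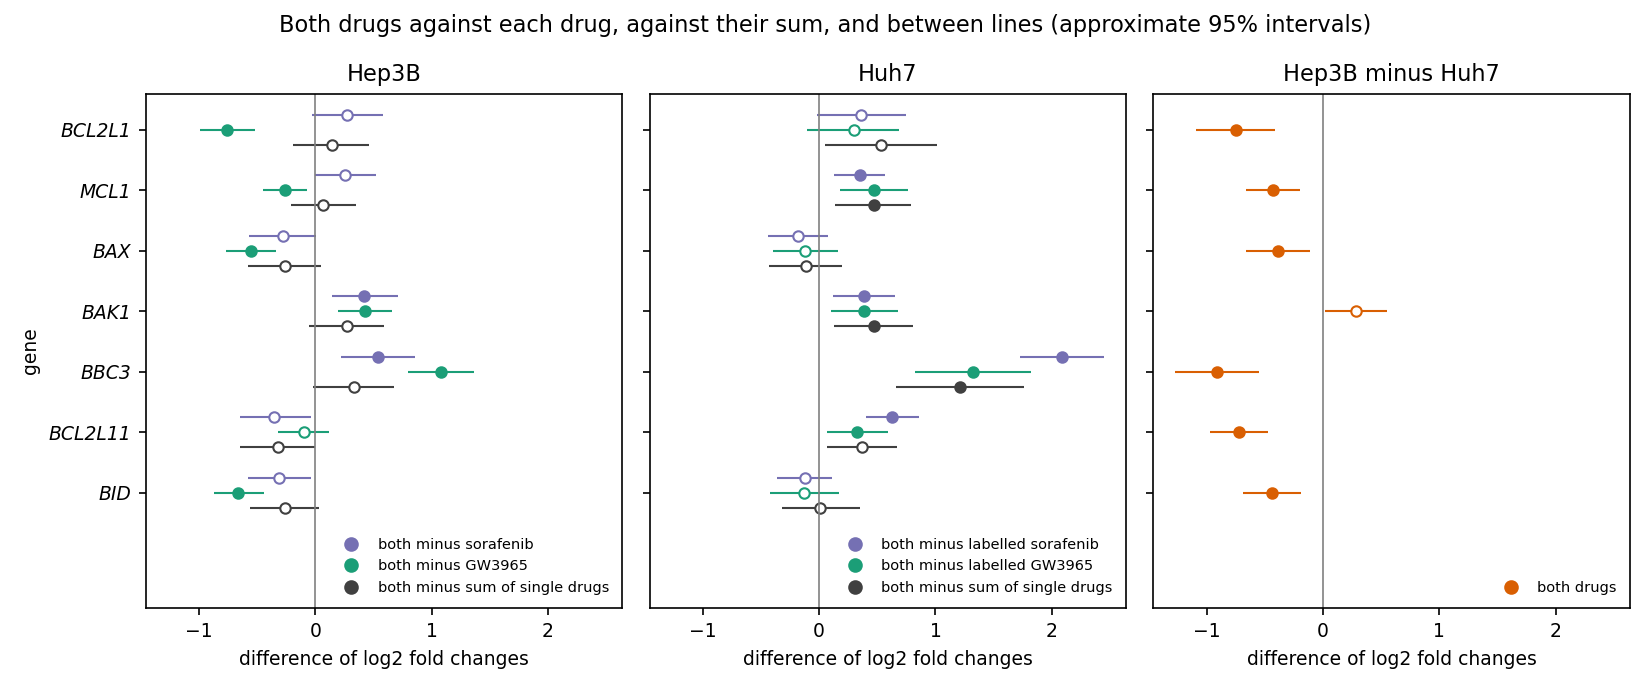
Differences of log2 fold changes (horizontal axis) for the 7 BCL2 family genes with at least 2 CPM, with approximate 95% intervals. Left and middle panels give both drugs minus each single drug and minus the sum of the single drugs in Hep3B and in Huh7 (single drugs by label), and the right panel gives both drugs in Hep3B minus Huh7. Filled points passed an adjusted p of 0.05. BBC3 lies furthest right in the Huh7 panel, at 2.09 against the group labelled sorafenib, and 6 of the 7 genes lie left of 0 in the right panel.

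Other genes of the pathway were counted from lists made with earlier results of these data known. Those named, save a few transcription factors, have the largest called changes with both drugs. Of the 13 other BCL2 family genes, both drugs raised 3 and lowered 2 in Hep3B and raised 6 and lowered 2 in Huh7, with median log2 fold changes of 0.11 and 0.36 in the authors' deposited tables. Of all genes in them, 26.0% were called higher and 23.6% lower in Hep3B, and 24.3% and 17.3% in Huh7. HRK, a BH3-only gene best known from neurons, rose by 2.69 in Hep3B and 1.99 in Huh7 in the authors' deposited tables, at means of 1.54 and 0.448 CPM. BMF, whose BH3-only product is released from the cytoskeleton, fell by 0.33 in Hep3B and rose by 1.20 in Huh7 in the authors' deposited tables. BOK, an effector-like member of the endoplasmic reticulum, was at -0.04 in Hep3B and rose by 1.21 in Huh7 in the authors' deposited tables. BCL2L12 fell in both (-0.88 and -0.74) and BCL2L13, a mitophagy receptor, rose in both (0.96 and 0.58) in the authors' deposited tables. The line differences of -1.53 for BMF and -1.25 for BOK passed the approximate test (adjusted p = 5.87e-31 and 4.90e-07).

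Downstream of the pore, the median change of the apoptosome genes was close to 0. Of 10 apoptosome and caspase genes, 3 rose and 3 fell with both drugs in Hep3B, and 1 rose and 3 fell in Huh7, and the medians were 0.03 and -0.06 (the authors' deposited tables). Of all genes in them, 49.6% were called in Hep3B and 41.6% in Huh7, and 72.1% and 61.7% of those with at least 2 CPM. The executioner caspase CASP6 fell in both lines (-0.58 and -0.30), as did AIFM1 (-0.45 and -0.44), a flavoprotein of the mitochondrial intermembrane space, in the authors' deposited tables. DIABLO, which neutralises inhibitor of apoptosis proteins, rose by 0.37 in Hep3B in the authors' deposited table. Of 7 inhibitor of apoptosis genes, 2 rose and 2 fell in Hep3B and 4 rose and 1 fell in Huh7. BIRC2 rose in both (0.94 and 0.42) and BIRC5, which encodes survivin, fell in both (-0.54 and -0.55), while BIRC3 fell in Hep3B (-0.70) and rose in Huh7 (1.31) in the authors' deposited tables. BIRC7 rose by 1.37 and 2.25 in the authors' deposited tables, at means under 0.5 CPM. Of 8 genes for outer membrane channels and MCL1 turnover, 3 rose and 3 fell in Hep3B and 4 rose and 2 fell in Huh7. VDAC2, the channel that holds BAK in the membrane, rose in both lines (0.45 and 0.49), and VDAC1 (-0.69 and -0.41) and VDAC3 (-0.50 and -0.53) fell in both in the authors' deposited tables. The transcripts of VDAC1 and VDAC2 marked as representative are noncoding RefSeq entries, and other transcripts of these genes were not examined.

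Transcription factors that act on BH3-only genes made up the list with the highest medians. Of the 11 listed, 7 rose and 3 fell with both drugs in Hep3B and 8 rose and 1 fell in Huh7, with medians of 1.25 and 1.37 beside -0.06 and 0.16 over all genes in the authors' deposited tables. Of all genes in them, 26.0% were called higher and 23.6% lower in Hep3B, and 24.3% and 17.3% in Huh7. ATF3 rose by 4.54 and 3.93, CEBPB by 3.10 and 1.93 and DDIT3 (CHOP), the factor of the unfolded protein response that acts on BBC3 and BCL2L11, by 2.75 and 2.88 in the authors' deposited tables. ATF4 rose by 1.25 in Hep3B and 1.21 in Huh7 in the authors' deposited tables. The 3 that fell in Hep3B were TP73 (-1.67, at a mean of 0.646 CPM), E2F1 (-0.87) and FOXO1 (-0.64), whereas FOXO3 rose there by 1.10 in the authors' deposited table. DDIT3 exceeded the sum of the single-drug changes in Huh7 by 1.23 ± 0.39 (adjusted p = 0.0137) and lay at 0.20 ± 0.23 in Hep3B (adjusted p = 0.571) by the approximate test. The part of these factors in the changes of BBC3 and PMAIP1 was not tested.

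**Figure D4:**
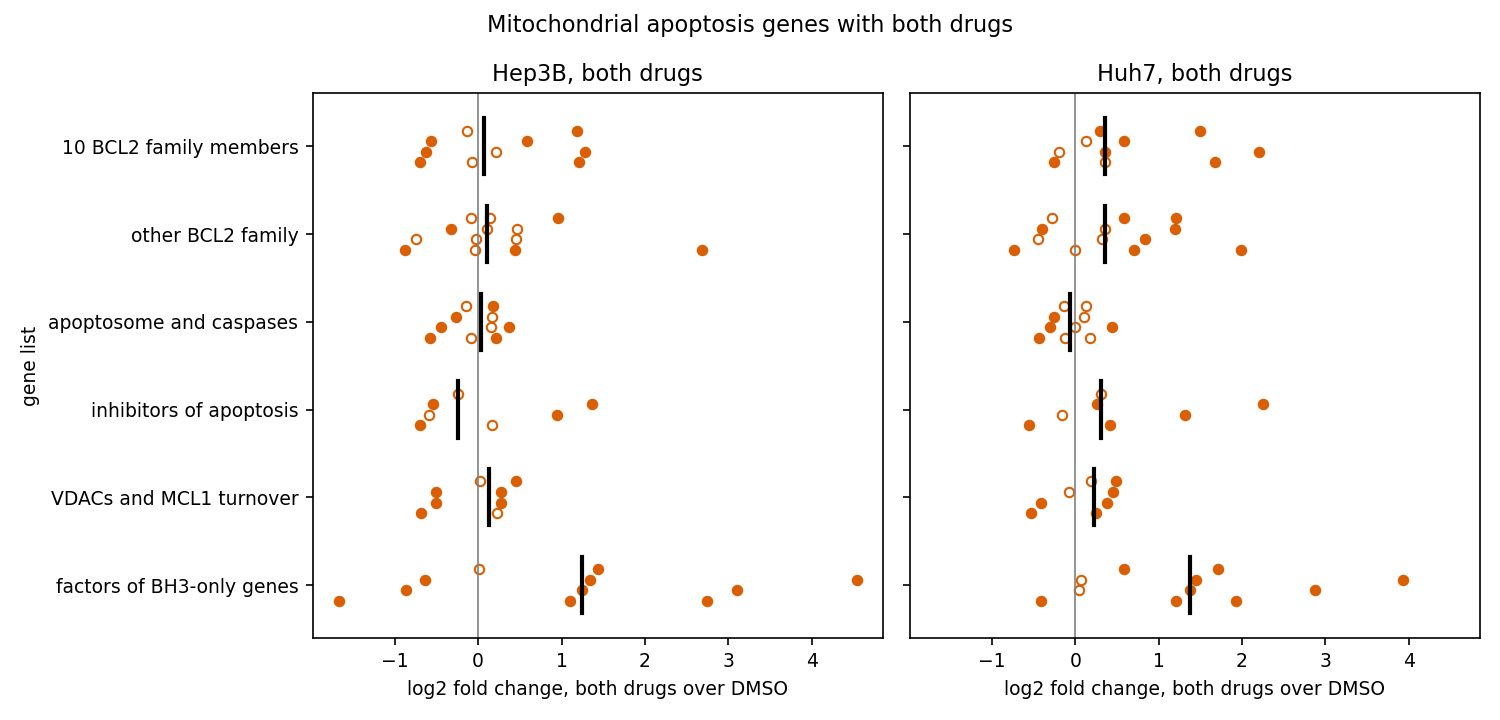
Log2 fold change of both drugs over DMSO (horizontal axis) for the 10 BCL2 family genes and 5 lists of related genes (rows) in Hep3B (left) and Huh7 (right), from the authors' deposited tables. Points are genes, filled where the deposited FDR was under 0.05, and black bars are list medians. Factors of BH3-only genes have the highest median of the rows, 1.25 in Hep3B and 1.37 in Huh7, while the apoptosome and caspase genes have medians of 0.03 and -0.06.

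Genes whose 6 log2 fold changes lay nearest to those of BBC3 and PMAIP1 were looked up among 10607 genes with at least 2 CPM in each table, by Euclidean distance over the 6 comparisons. Nearest to BBC3 were KLF7 at 0.31, RASD1 at 0.33 and KLF6 at 0.36. KLF7, for example, had 1.08 with both drugs in Hep3B and 2.23 in Huh7 in the authors' deposited tables. Nearest to PMAIP1 were MYC at 1.01, FAM59A at 1.10 and UGCG at 1.17, where the standard errors of PMAIP1, from 0.37 to 0.61, set a limit on how near any gene could lie.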

How the data were processed

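Poly-A RNA-seq libraries of Hep3B and Huh7 were grouped by their labels into 8 groups. Per the submitters' processing notes, edgeR was used, and hg19 and GRCh37 are listed as builds. The aligner, the read counter, the normalization and the edgeR version were not given in the sources used here. For each drug group against DMSO the authors deposited, per the file headers, 4 statistics on each of 32321 transcripts: the log2 CPM averaged over libraries, the log2 fold change, its p-value and its FDR. The authors also deposited how many libraries had reads of the transcript and a mark for 1 representative transcript of each of 20090 genes, per the file headers. Depth per library is unknown.

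The columns were checked before use. Benjamini-Hochberg adjustment of the deposited p-values gave the deposited FDR to within 6.76e-15. Taking the deposited fold as drug relative to DMSO, the DMSO level implied by 2 tables of a line differed with an SD between 0.00382 and 0.0150 on the log2 scale, while the reverse reading gave 0.339 to 0.694.

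Calls in the 6 tables are the authors' edgeR tests, which were not refitted. The deposited mean log2 CPM, as a linear value, was taken as the mean over the drug and DMSO libraries, weighted by their numbers. Group levels were those that gave this mean at the deposited fold change, and the DMSO level was averaged over 3 tables. Transcript lengths are from GENCODE 29, matched by RefSeq accession. For differences of log2 fold changes, a standard error was obtained as the absolute fold change over the normal score belonging to the deposited p-value. Genes were sorted into 20 bins of expression, whose median standard error served where p exceeded 0.5 and as a lower bound elsewhere. Errors were combined as the root of summed squares. Normal p-values, 2-sided, received Benjamini-Hochberg adjustment over all representative transcripts with a mean of at least 2 CPM. Errors of DMSO libraries shared within a line are thereby counted more than once. In the difference between both drugs and 1 drug DMSO cancels, so the standard errors there are too large. The approximate test was tested on simulated data. The members and the lists were chosen with earlier results of these data known. Named genes were the 10 members, up to 3 genes per list with the largest called change in each both-drug table, DDIT3 and ATF4, the nearest patterns of members called in both lines with a log2 fold change of at least 1 in either, and ABCG1 and DUSP6 as label checks. Some genes and 1 list taken by this rule are left out here, and TP73, E2F1, FOXO1 and FOXO3 were named outside it. Promoters are from RefSeq, GRCh38.p14, and were not matched to coordinates of the authors' build. Scripts ran in Python 3.11.15 with pandas 2.3.3, numpy 2.4.6 and scipy 1.17.1. Alternatives were an FDR of 0.01, other sets of transcripts for adjustment, other listed transcripts, subtracted medians, no lower bound on the standard error and all genes tested. In a further alternative the shared DMSO error was counted once in the departure from the sum. It was left out of the differences between both drugs and 1 drug. Single fold changes with the median subtracted were judged by a normal test on the approximate standard errors, adjusted over all representative transcripts.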

Additional observations from a re-analysis of the deposited data

Results flagged for a closer look

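Under the same both-drug treatment, 6 of the 7 BCL2 family genes with at least 2 CPM had log2 fold changes that differed between the lines by the approximate test, each lower in Hep3B than in Huh7. The differences, Hep3B minus Huh7, were -0.91 for BBC3 (adjusted p = 6.48e-06), -0.75 for BCL2L1 (9.90e-05), -0.72 for BCL2L11 (2.27e-07), -0.44 for BID (0.00235), -0.43 for MCL1 (0.00126) and -0.39 for BAX (0.0175). BIK, below 2 CPM, was at -1.29 (0.0122) where all representative transcripts were tested. The 2 lines share no libraries, and of all genes with at least 2 CPM 17.7% were higher and 26.3% lower in this contrast.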

How the results depend on the processing

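Of 58 recomputed counts of called genes, 47 stayed within 1.5 times the reported count. Another 6, with the transcript of highest mean CPM, could hardly move, since it differed from the representative one in 1 of 60 cases. In the Huh7 table labelled GW3965 the count of 2 became 1 (BBC3) at an FDR of 0.01 and 1 where every listed transcript had to be called. For both drugs minus sorafenib in Hep3B, 2 became 1 at an adjusted p of 0.01 and 4 with the median difference subtracted. The count was 7 (4 higher, 3 lower) with the shared DMSO error, which cancels in this difference, left out. That alternative was chosen after seeing the data, as was counting the error once in the departure from the sum. For both drugs minus the group labelled GW3965 in Huh7, 4 became 2 at 0.01 and 1 with the median subtracted. The departure from the sum gave 1 in place of 0 in Hep3B with the shared error counted once (BCL2L11, lower). In Huh7 its 3 became 1 at 0.01, 1 with the median subtracted and 5 with the shared error counted once. The cause of these moves beyond the settings themselves was not tested. Of 60 single log2 fold changes with the median subtracted and the normal test in place of edgeR, 58 kept their side of the threshold. BAX is the exception in both cases: it no longer passed with sorafenib in Hep3B (-0.26) and passed with both drugs in Huh7 (-0.25). None reversed. Where every listed transcript had to be called, BCL2 lost its call with both drugs in Hep3B (0.44, FDR 0.446) and BCL2L11 its call in Huh7 (0.28, FDR 0.0889) in the authors' deposited tables. No paired analysis was possible because values of single libraries were not used, and for the same reason the replicate block and leaving out each replicate were not run. Below 2 CPM, as for BCL2, PMAIP1 and BIK, standard errors of 0.24 to 0.61 limit what could be seen.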
